A study of Mus musculus with 40 samples.

Results

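Which genes the catalytically mutated KAT6A protein still supports was examined by comparing whole E9.5 mouse embryos homozygous for the point mutation G656E with embryos homozygous for a null allele of the same gene. The members were chosen by their genotype labels: 4 libraries labelled G656E/G656E (*Kat6a* E/E) and 4 labelled cfd/cfd (*Kat6a*-/-), which are 8 of the 40 libraries of the series and 8 of its 24 embryo libraries, and all 8 are WT for the paralogue *Kat6b*. The null allele lacks exons 3 to 7 of *Kat6a* and was kept on C57BL/6, and the point mutation was made by genome editing in C57BL/6J embryos and backcrossed, so that in every embryo the change is germline and present in all cells. For reference, 4 WT embryos and 4 embryos homozygous for both G656E in *Kat6a* and G577E in the gene *Kat6b* (*Kat6a* E/E;*Kat6b* E/E, called double mutants below) were read beside them. Each library is 1 embryo, chosen by the study for a similar external appearance within the stage. The 4 *Kat6a*-/- libraries came from 3 litters and the 4 *Kat6a* E/E libraries from 3 other litters, so no litter held both genotypes and the effects of genotype and litter cannot be told apart within a litter. Depth, as the sum of counts per library, lay between 11498135 and 21725329 in *Kat6a*-/- and between 14135583 and 23339359 in *Kat6a* E/E libraries. As a check of the label of whole embryo, the marker lists of neural tissue, heart muscle, somite, endothelium and primitive red cells were read with no gene at 0 in any of the 8 libraries. In the list of gut endoderm and liver bud, 1 gene was at 0 in *Kat6a*-/- replicate 2. The study states that the embryos were male, and 1 library did not match this: *Kat6a*-/- replicate 2 held 527 CPM of *Xist*, the transcript of the inactive X chromosome, and 0.199 CPM summed over 4 Y-linked genes, whereas the other 3 *Kat6a*-/- and the 4 *Kat6a* E/E libraries held no more than 0.257 CPM of *Xist*. Where a named call was lost without this library, the value without it is given.

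KAT6A is a histone acetyltransferase of the MYST family that works in a complex with a BRPF scaffold protein, an ING protein and MEAF6. Its acetyltransferase domain binds acetyl coenzyme A and transfers the acetyl group to lysines of histone H3, and other parts of the protein bind chromatin and partner proteins. In the mouse embryo it is known for keeping Hox genes active in their proper domains along the body axis and for supporting *Tbx1* in the development of the pharynx and the heart. The null allele was made as a loss of function, while G656E changes a glycine of the acetyl coenzyme A binding site to glutamate, so the comparison asks which genes differ between embryos with the mutated protein and embryos without a functional one.

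The mutated codon is shown because it defines the point-mutant allele. In GRCm39, the mutated glycine of KAT6A is encoded at chr8:23416459-23416461 (plus strand), in coding exon sequence of exon 13 of 18 in GENCODE, and the 63 bases of spliced coding sequence around it run on into the next exon. The codon is in capitals in the WT sequence.
Kat6a codon: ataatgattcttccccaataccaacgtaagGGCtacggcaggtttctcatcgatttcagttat

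The transcript of the targeted gene was read first. *Kat6a* was at 159.8, 165, 168 and 171 CPM in *Kat6a*-/- and at 217, 160.4, 153 and 178 CPM in *Kat6a* E/E embryos, with values listed here and below in the order of replicates 1 to 4. The groups overlapped, and replicate 1 of *Kat6a* E/E was the highest of the 8. The difference did not pass the test (log2 fold change 0.11, SE 0.092, FDR=0.613). Counts over the whole gene do not check either allele, since they do not resolve the deleted exons or the changed codon. The paralogue *Kat6b* was at 43.9, 42, 44.1 and 42.2 CPM in *Kat6a*-/- and at 44.7, 40.1, 37.8 and 39.7 CPM in *Kat6a* E/E embryos and did not pass either (log2 fold change -0.07, SE 0.067, FDR=0.663). None of the 11 tested genes of the KAT6 complexes and the MYST family was called, and their log2 fold changes lay between -0.15 and 0.11.

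Of 14183 protein-coding genes tested, 227 (1.6%) had FDR<0.05 between the genotypes, 138 (0.973%) higher and 89 (0.628%) lower in *Kat6a* E/E. FDR is the Benjamini-Hochberg adjusted p of limma over all genes tested, a gene with FDR<0.05 is referred to as called, and every fold change is the fitted level in *Kat6a* E/E relative to *Kat6a*-/- unless stated otherwise. Where only 1 member of a gene list was called, this is a result on that gene and not on the list. Fitted levels are adjusted for 4 surrogate variables (estimated factors of unknown variation), so a fold change can differ from the ratio of the listed CPM. Most changes were small: the absolute log2 fold change had a median of 0.40, and for 179 of the 227 it stayed under 1.5-fold. In 172 of the 227, the 4 libraries of one genotype did not overlap those of the other in CPM (counts scaled to library size), against 1184 of all genes tested (8.35%). Since the 227 were called from these same libraries, a larger share among them follows from the choice. On the log2 CPM scale, the root mean square difference of the 500 most different genes of each pair of libraries averaged 1.47 between genotypes, 1.25 within *Kat6a* E/E and 1.39 within *Kat6a*-/-, an excess of 0.148 (exact permutation test over the 35 splits of 8 libraries, one-sided, p = 0.0286, the smallest this design can give). *Kat6a*-/- replicates 1 and 4 are littermates, as are *Kat6a* E/E replicates 2 and 3, and this test does not account for litter, so its p can be too small. The count depended on the model. With the 4 surrogate variables left out it was 61, and with the surrogate variables and all libraries but these 8 both left out it was 3 (*Ednrb* and, lower, *Galt* and *Rpp25l*, which were named after their values were seen), while at an unadjusted p of 0.05 the latter fit held 1570 genes. It was 116 without *Kat6a*-/- replicate 2, of which 89 were among the 227 (72 of the 138 higher and 17 of the 89 lower genes), and 112 without *Kat6a* E/E replicate 2. Each of the 227 genes kept its sign in all 22 alternatives except 1 gene in the fit of the 8 libraries alone.

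**Figure D1:**
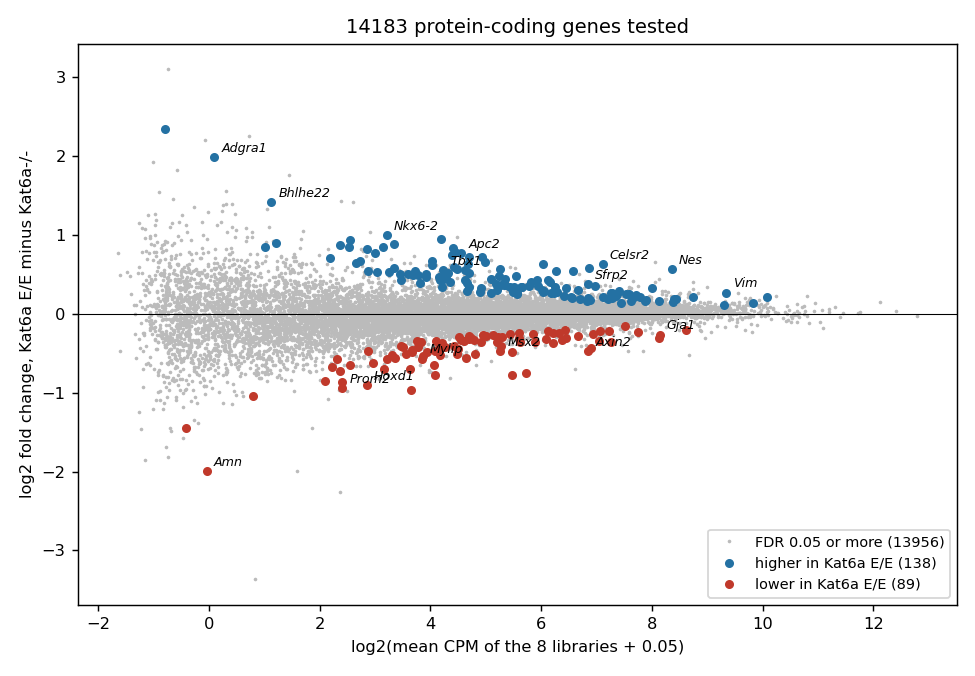
Log2 fold change of Kat6a E/E relative to Kat6a-/- for each gene tested (vertical axis) against the log2 of its mean CPM over the 8 libraries (horizontal axis); blue and red points are the 138 higher and 89 lower genes with FDR<0.05. Most called genes lie within 1.5-fold (179 of 227), and Adgra1 and Bhlhe22 are among those farthest above 0.

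**Figure D2:**
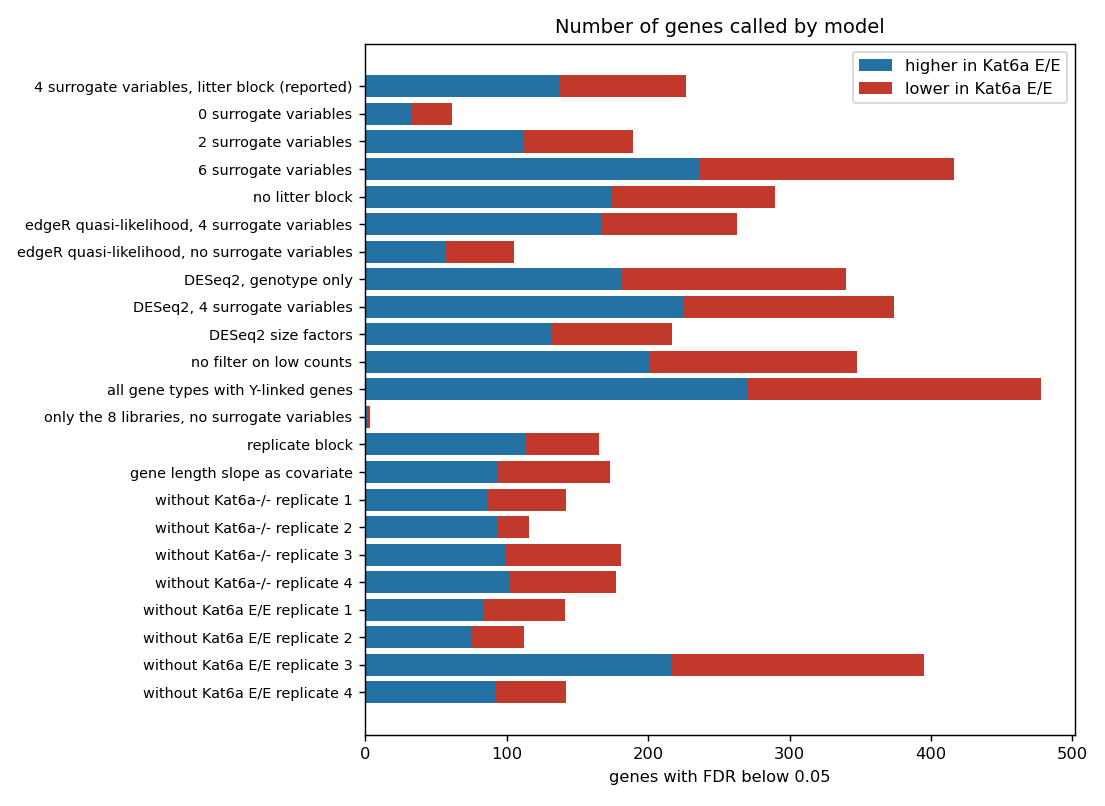
Number of genes with FDR<0.05 (horizontal axis) under the reported model and 22 alternatives, split into genes higher (blue) and lower (red) in Kat6a E/E. The bars run from 3 genes with only the 8 libraries and no surrogate variables to 478 with all gene types.

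The 4 WT libraries, which do not enter this contrast, show which mutant lay away from WT. Placed on a log2 scale with *Kat6a*-/- at 0 and *Kat6a* E/E at 1, WT lay nearer to *Kat6a* E/E for 187 of the 227 called genes (82.4%), with a median position of 0.774. The share was 126 of 138 among genes higher in *Kat6a* E/E and 61 of 89 among genes lower in it. Against WT itself, 375 genes (2.64%) were called in *Kat6a*-/-, 179 higher (1.26%) and 196 lower (1.38%), and 39 (0.275%) in *Kat6a* E/E, 5 higher (0.0353%) and 34 lower (0.24%), and these comparisons share the WT libraries. WT replicate 1 is a littermate of *Kat6a*-/- replicate 2, and WT replicate 2 of *Kat6a* E/E replicate 1. Double mutants carry the same *Kat6a* mutation and in addition G577E in *Kat6b*. They lay nearer to *Kat6a* E/E for 103 of the 227 genes (45.4%), with a median position of 0.459. Compared with *Kat6a*-/- directly, 1 gene (0.00705%) was called in them by limma, *Bhlhe22*, and 1479 genes had an unadjusted p under 0.05.

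**Figure D3:**
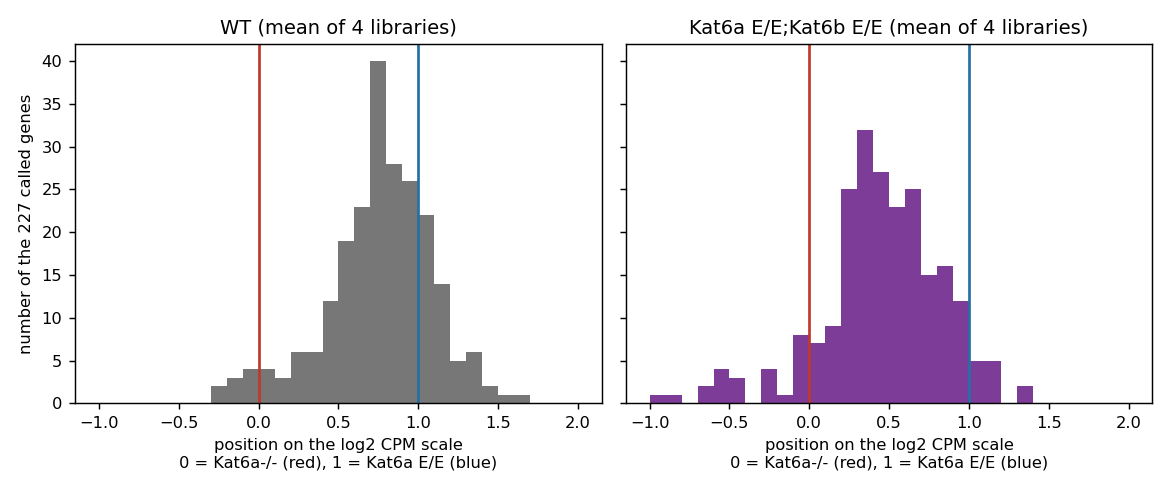
Position of the mean WT level (left) and the mean double-mutant level (right) of each of the 227 called genes between Kat6a-/- (0, red line) and Kat6a E/E (1, blue line) on the log2 CPM scale; bars count genes. WT centres near Kat6a E/E (median 0.774) and the double mutant about midway (median 0.459).

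The promoters of the genes with the smallest p in each direction are shown because KAT6A acts on chromatin at gene starts, and KAT6A is known to bind DNA with unmethylated CG dinucleotides. Each sequence is the 150 bases upstream of the start of the canonical GENCODE transcript in GRCm39, read 5′ to 3′ on the strand of the gene, with CG dinucleotides in capitals. Those of the 2 genes higher in *Kat6a* E/E, *Celsr2* at chr3:108323398-108323547 (minus strand) and *Apc2* at chr10:80131426-80131575 (plus strand), held 9 and 5 CG. Those of the 2 genes lower in it, *Gja1* at chr10:56253270-56253419 (plus strand) and *Flrt3* at chr2:140513397-140513546 (minus strand), held 3 each. The *Gja1* stretch lies inside the annotated gene, which begins at 56253241, upstream of the start of the canonical transcript.
Celsr2: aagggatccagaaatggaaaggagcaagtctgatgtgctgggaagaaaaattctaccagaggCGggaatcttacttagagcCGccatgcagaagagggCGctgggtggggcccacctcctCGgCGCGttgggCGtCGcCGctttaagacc
Apc2: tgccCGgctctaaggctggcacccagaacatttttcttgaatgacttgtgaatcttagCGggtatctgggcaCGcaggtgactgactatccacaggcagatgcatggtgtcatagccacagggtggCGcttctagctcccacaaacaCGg
Gja1: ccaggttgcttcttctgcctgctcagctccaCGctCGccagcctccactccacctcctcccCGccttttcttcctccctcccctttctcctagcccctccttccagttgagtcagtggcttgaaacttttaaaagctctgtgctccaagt
Flrt3: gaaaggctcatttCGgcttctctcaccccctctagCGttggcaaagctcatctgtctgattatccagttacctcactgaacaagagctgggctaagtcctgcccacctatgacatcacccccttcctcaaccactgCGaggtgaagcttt

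Over 300 bases around the start, from 250 before it to 50 after, the observed over expected ratio of CG was 0.890 for *Celsr2*, 0.426 for *Apc2*, 0.5 for *Gja1* and 0.410 for *Flrt3*. The median ratio was 0.660 for the 138 higher genes, 0.667 for the 89 lower genes and 0.694 for the 14093 of 14183 tested genes with a matched start, and 58.0%, 58.4% and 61.9% of them had a ratio above 0.6. The median exon length was 5697 bases for the higher genes and 3258 for the lower genes, against 3248 for all genes tested.

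*Celsr2*, a cadherin of planar cell polarity, had the smallest p of all genes and lies on chromosome 3, 108298165 to 108323397, minus strand, with 34 exons. *Celsr2* was at 86.6, 129, 100.2 and 91.9 CPM in *Kat6a*-/- and at 196, 172, 150.3 and 178 CPM in *Kat6a* E/E embryos. Every *Kat6a* E/E library was above every *Kat6a*-/- library, of which replicate 2 was the highest. The fitted level was 1.55-fold higher in *Kat6a* E/E (log2 fold change 0.63, SE 0.063, FDR=5.52e-06). In WT it was 157 ± 7.04 CPM (SD, n=4), with a log2 fold change against WT of -0.51 (FDR=6.35e-05) in *Kat6a*-/- and 0.12 (FDR=0.475) in *Kat6a* E/E. Of 19 tested planar cell polarity genes, 2 were called (10.5%, against 1.6% of all genes tested), both higher. The other was *Ankrd6* (Diversin), which links this pathway to Wnt signalling, at 24.3, 26.9, 24.5 and 27.5 CPM in *Kat6a*-/- and 35.3, 32.7, 33.4 and 32.1 CPM in *Kat6a* E/E embryos. Its groups did not overlap, and its fold change was smaller (log2 fold change 0.28, SE 0.07, FDR=0.0431). The median of the list was 0.0037, beside -0.0037 over all genes tested. *Celsr2* remained called without *Kat6a*-/- replicate 2, at 0.70 (FDR=1.21e-06), and *Ankrd6* did not, at 0.28 (FDR=0.0951).

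**Figure D4:**
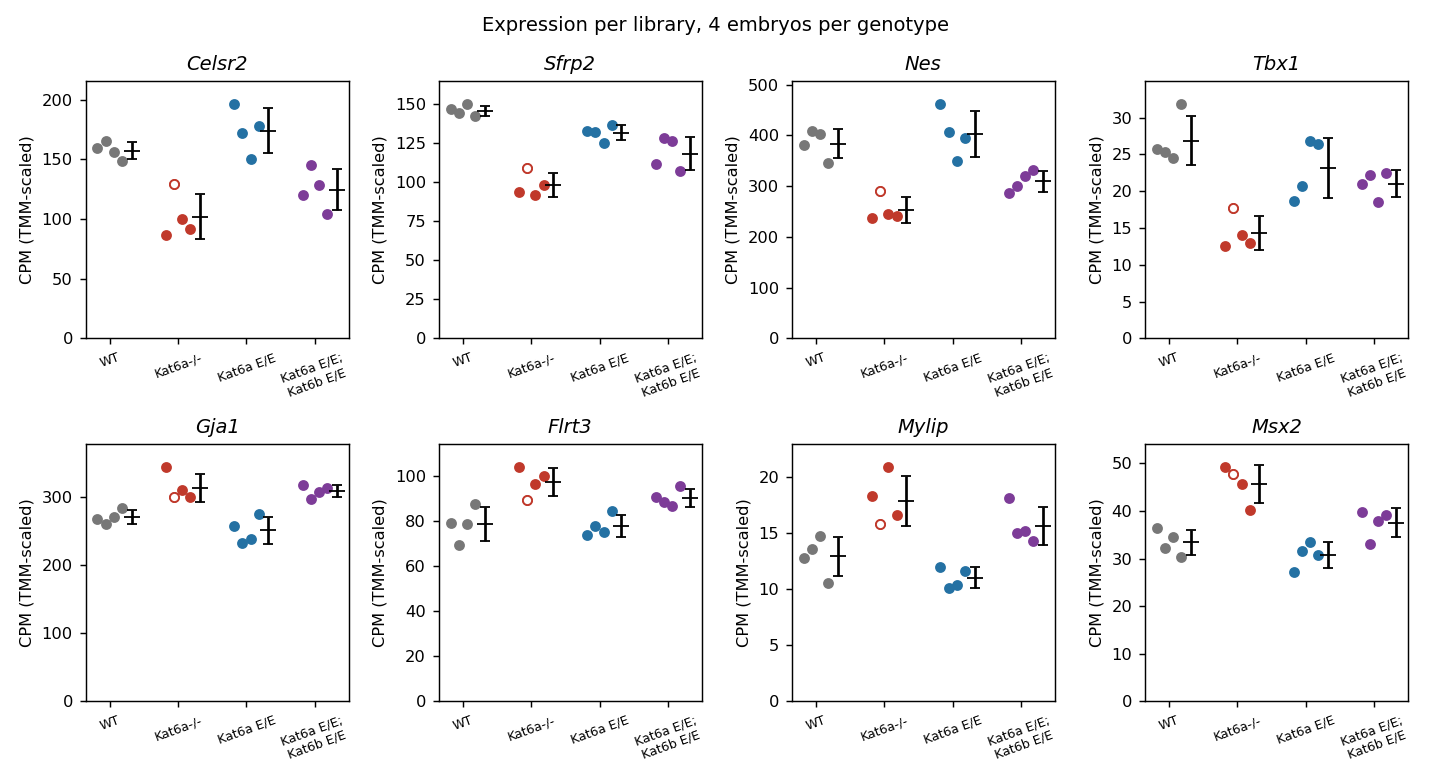
CPM of 8 called genes per library (vertical axes) in 4 WT, 4 Kat6a-/-, 4 Kat6a E/E and 4 double-mutant embryos; points are single embryos, the open point is Kat6a-/- replicate 2, and bars are mean and SD of 4. In each panel the Kat6a E/E embryos do not overlap the Kat6a-/- embryos and lie closer to WT.

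Genes of Wnt signalling moved in both directions. Higher were 2 secreted antagonists that bind Wnt ligands, *Sfrp2* (chromosome 3, 83673481 to 83681623, plus strand) and *Sfrp1*. *Sfrp2* was at 94, 109, 91.8 and 98.6 CPM in *Kat6a*-/- and at 133, 132, 125 and 137 CPM in *Kat6a* E/E embryos. The 4 values of each genotype were close to one another and far from those of the other (log2 fold change 0.37, SE 0.056, FDR=0.00141). WT embryos were higher still, at 146 ± 3.19 CPM, with a log2 fold change of -0.14 (FDR=0.32) in *Kat6a* E/E against WT and of -0.51 (FDR=8.68e-06) in *Kat6a*-/-. *Sfrp1*, at 192, 250.03, 218 and 226 CPM in *Kat6a*-/- and 270.3, 296, 310.4 and 296 CPM in *Kat6a* E/E, did not overlap either (log2 fold change 0.33, SE 0.068, FDR=0.0188). *Notum*, a secreted enzyme that inactivates Wnt ligands, was lower, at 16.4, 16.9, 15.5 and 14.2 CPM in *Kat6a*-/- and 9.21, 12.2, 13.2 and 11.6 CPM in *Kat6a* E/E (log2 fold change -0.43, SE 0.11, FDR=0.0443). Its *Kat6a* E/E values were all below those of *Kat6a*-/-, and the call was lost without *Kat6a*-/- replicate 2, at -0.30 (FDR=0.213). These were the 3 genes called of 33 secreted modulators and ligands (9.09%, against 1.6% of all genes tested). Of the 33, 26 had a negative log2 fold change (list median -0.15).

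Inside the cell, *Apc2*, a relative of the adenomatous polyposis coli protein that is known mainly from neurons, was higher (chromosome 10, 80131576 to 80154097, plus strand). *Apc2* was at 13.8, 22, 16.9 and 12.6 CPM in *Kat6a*-/- and at 37.6, 36.5, 23.1 and 25.4 CPM in *Kat6a* E/E embryos. Replicates 1 and 2 of *Kat6a* E/E were the highest, and the lowest *Kat6a* E/E library lay just above the highest *Kat6a*-/- library (log2 fold change 0.77, SE 0.099, FDR=0.000238). *Axin2* and *Lef1*, which are both components and transcriptional targets of the β-catenin pathway, were lower. *Axin2* was at 150.4, 146, 126 and 121 CPM in *Kat6a*-/- and at 104, 87.8, 85.8 and 103 CPM in *Kat6a* E/E embryos, with no overlap (log2 fold change -0.48, SE 0.089, FDR=0.0109). *Lef1*, at 93.6, 79.5, 81.6 and 81.9 CPM in *Kat6a*-/- and 73.1, 56.8, 61.8 and 68.9 CPM in *Kat6a* E/E, changed less (log2 fold change -0.24, SE 0.059, FDR=0.0369). The Wnt receptor *Fzd8* was also lower, at 31.3, 39.4, 28.5 and 29.6 CPM in *Kat6a*-/- and 25.8, 21.7, 19.96 and 26.6 CPM in *Kat6a* E/E (log2 fold change -0.51, SE 0.084, FDR=0.0026). Its *Kat6a* E/E values were all below those of *Kat6a*-/-, which included a high value in replicate 2. In WT, *Axin2* was at 111 ± 7.63 CPM and *Fzd8* at 29.5 ± 2.79 CPM, between both mutants. Of 19 genes of the destruction complex and its targets, 1 was called higher and 2 lower (15.8% in both directions, against 1.6% of all genes tested). Leaving out *Kat6a*-/- replicate 2, the values were -0.40 (FDR=0.0596) for *Axin2*, -0.35 (FDR=0.0703) for *Fzd8* and -0.29 (FDR=0.0195) for *Lef1*.

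Since a whole embryo was sequenced, fewer cells of a type and less RNA per cell cannot be told apart. The summed level of the neural markers *Sox1*, *Sox2*, *Pax6*, *Nes* and *Tubb3* was 705 to 889 CPM in *Kat6a* E/E, 489 to 692 CPM in *Kat6a*-/- and 744 to 835 CPM in WT embryos, with no gene at 0. The range of *Kat6a* E/E lay above that of *Kat6a*-/-, but 1 of the 5 markers, *Nes*, is itself a called gene, and without it the sums were 356 to 482 CPM in *Kat6a* E/E and 252 to 401 CPM in *Kat6a*-/-, which overlap. The part of neural tissue in the results on neural genes that follow was not tested.

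Genes of neural progenitors and neurons were called mostly higher in *Kat6a* E/E. Nestin (*Nes*, chromosome 3, 87878385 to 87887758, plus strand), an intermediate filament of neural progenitor cells, was higher. *Nes* was at 237, 291, 244 and 242 CPM in *Kat6a*-/- and at 461, 407, 349 and 394 CPM in *Kat6a* E/E embryos. The groups did not overlap, and *Kat6a*-/- replicate 2 was again the highest of its genotype (log2 fold change 0.57, SE 0.08, FDR=0.00247). Vimentin (*Vim*), the intermediate filament of progenitors and mesenchyme, was at 564, 608, 577.3 and 555 CPM in *Kat6a*-/- and 724, 806, 692 and 628 CPM in *Kat6a* E/E and did not overlap (log2 fold change 0.27, SE 0.043, FDR=0.00214). *Zic1*, a zinc finger factor of the dorsal neural tube, went the other way with overlapping groups, at 164, 213, 139 and 148 CPM in *Kat6a*-/- and 139, 161, 115 and 146 CPM in *Kat6a* E/E (log2 fold change -0.36, SE 0.065, FDR=0.00635). It was not called without *Kat6a*-/- replicate 2, its highest library, at -0.21 (FDR=0.371). Of 30 tested neural progenitor genes, 2 were called higher and 1 lower (10%, against 1.6% of all genes tested), and the list median was 0.11.

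*Notch1*, a receptor that keeps progenitors from differentiating, was higher. *Notch1* was at 104, 123, 105 and 104 CPM in *Kat6a*-/- and at 176, 129, 121 and 147 CPM in *Kat6a* E/E embryos. Replicate 3 of *Kat6a* E/E lay below *Kat6a*-/- replicate 2, so the groups overlapped at that point (log2 fold change 0.35, SE 0.059, FDR=0.0026). It was the only gene called of 20 of the Notch pathway by this model (5%, against 1.6% of all genes tested). It was called without *Kat6a*-/- replicate 2 as well, at 0.39 (FDR=0.00146).

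Among 21 proneural and neurogenic transcription factors, 4 were called (19%, against 1.6% of all genes tested), all higher, and the list median was 0.30. *Bhlhe22* (chromosome 3, 18108338 to 18111681, plus strand), a repressor in postmitotic neurons, had one of the largest fold changes. *Bhlhe22* was at 0.706, 1.46, 0.938 and 1.17 CPM in *Kat6a*-/- and at 3.92, 3.58, 2.60 and 2.70 CPM in *Kat6a* E/E embryos. The lowest *Kat6a* E/E library was well above the highest *Kat6a*-/- library (log2 fold change 1.41, SE 0.23, FDR=0.00214), and WT was at 3.55 ± 0.771 CPM. In double mutants it was at 2.59, 3.58, 2.82 and 2.49 CPM, a log2 fold change against *Kat6a*-/- of 1.37 (FDR=0.0289). *Ebf2* and *Ebf3*, factors that act as precursors leave the cycle, were also higher. *Ebf2* was at 17.6, 24.4, 26.7 and 18.4 CPM in *Kat6a*-/- and 27.7, 31.9, 28.6 and 27.3 CPM in *Kat6a* E/E and did not overlap, while *Ebf3*, at 31, 45.3, 39.8 and 36.7 CPM in *Kat6a*-/- and 59.9, 58.1, 43.8 and 51.7 CPM in *Kat6a* E/E, did. Their log2 fold changes were 0.40 (FDR=0.0198) and 0.34 (FDR=0.0189). *St18*, at 1.41, 5.11, 3.28 and 2.997 CPM in *Kat6a*-/- and 7.54, 8.66, 6.65 and 5.14 CPM in *Kat6a* E/E, was barely separated (log2 fold change 0.87, SE 0.22, FDR=0.0431). All 4 remained called without *Kat6a*-/- replicate 2.

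Of 42 genes of early neurons, 6 were called (14.3%, against 1.6% of all genes tested), all higher. A positive log2 fold change was found for 39 of them (list median 0.35, beside -0.0037 for all genes). *Elavl4*, an RNA binding protein of neurons, was at 13.6, 22.4, 20.6 and 17.3 CPM in *Kat6a*-/- and 38.3, 40.4, 25.3 and 28.1 CPM in *Kat6a* E/E. Its groups did not overlap (log2 fold change 0.64, SE 0.12, FDR=0.00696). *Ina*, a neuronal intermediate filament, was at 10.3, 17.3, 16.5 and 13.1 CPM in *Kat6a*-/- and 36.4, 36.3, 19.5 and 17.9 CPM in *Kat6a* E/E and was separated by a narrow margin (log2 fold change 0.74, SE 0.16, FDR=0.022). Doublecortin (*Dcx*), a microtubule-associated protein of young neurons, was at 10.1, 20.5, 16 and 10.5 CPM in *Kat6a*-/- and 41.8, 35.6, 18.9 and 16.4 CPM in *Kat6a* E/E and overlapped, with replicates 1 and 2 of *Kat6a* E/E the highest (log2 fold change 0.84, SE 0.15, FDR=0.00718). The same 2 libraries were highest for *Nefl*, a neurofilament, at 17.1, 29.8, 25.1 and 17.7 CPM in *Kat6a*-/- and 42.7, 61.2, 35.7 and 25.6 CPM in *Kat6a* E/E (log2 fold change 0.66, SE 0.12, FDR=0.00952). *Stmn3*, a regulator of microtubules in neurons, was also called, with a log2 fold change of 0.85. The same 42 genes had a median of 0.092 in *Kat6a* E/E against WT and of -0.30 in *Kat6a*-/- against WT. Without *Kat6a*-/- replicate 2 the count was 5, with *Syp* called, *Ina* not called at 0.68 (FDR=0.0702) and *Nefl* not called at 0.71 (FDR=0.0596), and the median 0.41.

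Genes of axon growth followed the same direction. The collapsin response mediators are cytosolic proteins that carry guidance signals to the cytoskeleton. All 5 members tested had a positive log2 fold change, the smallest 0.090. Of the 5, 4 were called higher (*Crmp1*, *Dpysl3*, *Dpysl4* and *Dpysl5*, 80%, against 1.6% of all genes tested). *Crmp1* was at 69.1, 87.1, 77.4 and 68.5 CPM in *Kat6a*-/- and at 112, 106, 89.3 and 87.6 CPM in *Kat6a* E/E embryos. The lowest *Kat6a* E/E library, replicate 4, lay just above *Kat6a*-/- replicate 2 (log2 fold change 0.33, SE 0.055, FDR=0.0026). The log2 fold changes of the other called members were 0.34 (FDR=0.00952) for *Dpysl4*, 0.25 (FDR=0.0138) for *Dpysl3* and 0.22 (FDR=0.0188) for *Dpysl5*. Of these *Dpysl4* overlapped between the genotypes. All 4 kept the call without *Kat6a*-/- replicate 2. Of 47 axon guidance genes, 5 were called (10.6%, against 1.6% of all genes tested), all higher, with a list median of 0.12. *Sema5b*, a membrane semaphorin, was at 30.2, 46.6, 36 and 33.4 CPM in *Kat6a*-/- and 61.8, 58.7, 50.5 and 56 CPM in *Kat6a* E/E without overlap (log2 fold change 0.49, SE 0.079, FDR=0.00247). Netrin 1 (*Ntn1*), the attractant made by the floor plate, was at 69.3, 105, 90.3 and 94.5 CPM in *Kat6a*-/- and 158, 128, 126 and 158 CPM in *Kat6a* E/E and was clearly separated (log2 fold change 0.58, SE 0.12, FDR=0.0242). The repellent ligands *Slit1* and *Slit2* were also called, with log2 fold changes of 0.45 (FDR=0.0264) and 0.30 (FDR=0.0248), and *Slit2* overlapped. The fifth was the receptor *Ephb2*, at 0.21. *Sema5b*, *Ntn1* and *Slit1* were called without *Kat6a*-/- replicate 2, while *Slit2* was at 0.28 (FDR=0.0665) and *Ephb2* at 0.20 (FDR=0.0678). The neuronal tubulins *Tuba1a* and *Tubb2b* were called as well, with log2 fold changes of 0.21 and 0.19 and overlapping groups. Of their transcripts, 75.1% and 32% of the bases have near-identical copies elsewhere in the genome, and *Tuba1a* overlaps another gene, so their counts are uncertain.

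*Nkx6-1* and *Nkx6-2*, homeobox factors that respond to Sonic hedgehog and define progenitor domains of the ventral neural tube, were higher in the whole embryo. *Nkx6-1* was at 7.76, 17.1, 15.2 and 18.1 CPM in *Kat6a*-/- and at 31.8, 25.5, 24.9 and 34.4 CPM in *Kat6a* E/E embryos. The groups did not overlap, with replicate 1 of *Kat6a*-/- the lowest (log2 fold change 0.78, SE 0.19, FDR=0.0448). *Nkx6-2* was at 2.82, 8.70, 4.69 and 5.24 CPM in *Kat6a*-/- and 11, 14.8, 12.8 and 13.8 CPM in *Kat6a* E/E and did not overlap (log2 fold change 1.00, SE 0.23, FDR=0.0321). WT was at 30.5 ± 2.54 CPM for *Nkx6-1* and 13 ± 1.82 CPM for *Nkx6-2*, about the level of *Kat6a* E/E. *Foxf1*, a forkhead factor that responds to Hedgehog in the splanchnic mesoderm, was at 22.1, 10.6, 22.9 and 28.6 CPM in *Kat6a*-/- and 26, 28.3, 41.9 and 26.4 CPM in *Kat6a* E/E (log2 fold change 0.72, SE 0.15, FDR=0.0212). Its groups overlapped, since *Kat6a*-/- replicate 4 was above 3 of the *Kat6a* E/E libraries and *Kat6a*-/- replicate 2 was far below all others. *Gas1*, a coreceptor of Sonic hedgehog, was lower, at 342, 334, 287 and 287 CPM in *Kat6a*-/- and 254, 255, 217 and 254 CPM in *Kat6a* E/E (log2 fold change -0.31, SE 0.075, FDR=0.0443). These 4 were called of 20 Hedgehog pathway genes (20%, against 1.6% of all genes tested, list median 0.19). None of the 20 was called without *Kat6a*-/- replicate 2, although the list median was then 0.18. The values then were 0.82 (FDR=0.089) for *Nkx6-1*, 1.28 (FDR=0.0596) for *Nkx6-2*, 0.44 (FDR=0.303) for *Foxf1* and -0.25 (FDR=0.176) for *Gas1*.

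**Figure D5:**
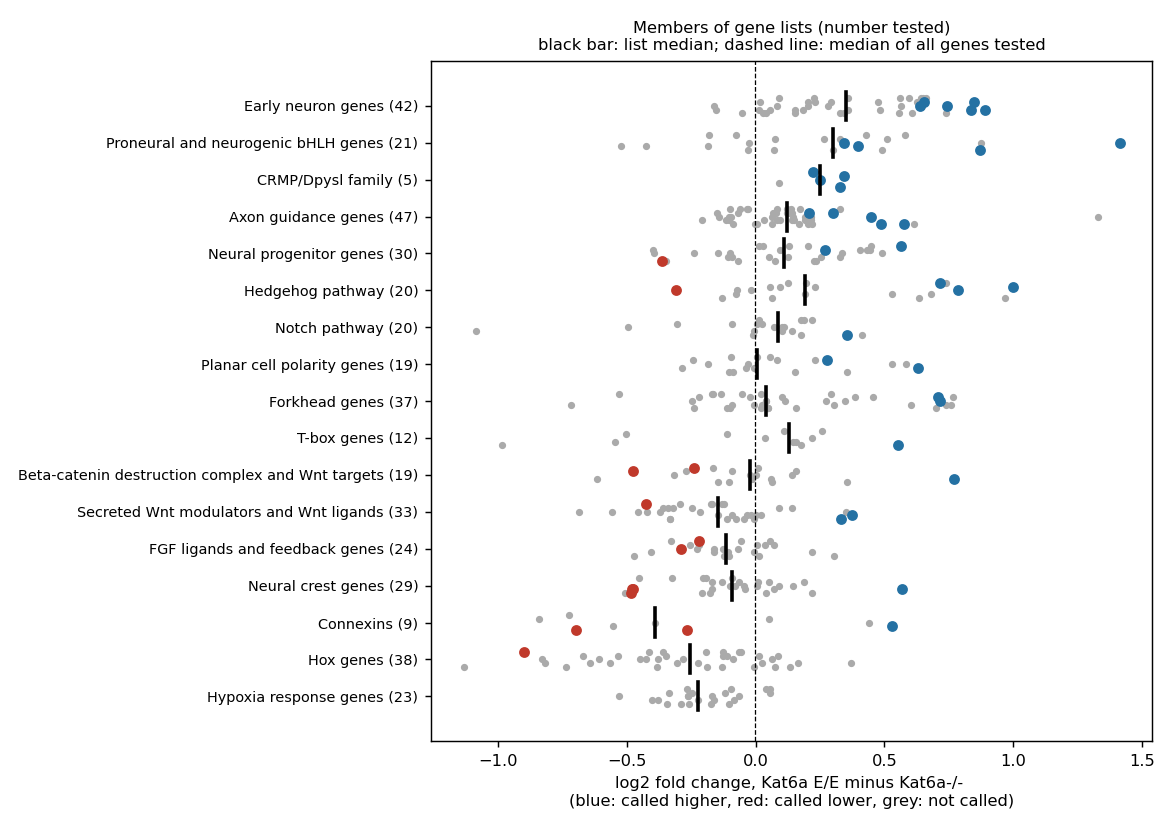
Log2 fold change of Kat6a E/E relative to Kat6a-/- (horizontal axis) for each tested member of 17 gene lists (rows, number of members in brackets); blue points were called higher, red points lower, grey points were not called, black bars are list medians and the dashed line is the median of all genes. Early neuron genes lie mostly to the right (39 of 42 positive), Hox and hypoxia genes mostly to the left.

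Transcription factors for which KAT6A is best known were read next. *Tbx1* (chromosome 16, 18399729 to 18409421, minus strand), the T-box factor of the pharyngeal arches and the cardiac outflow tract, was higher in *Kat6a* E/E. *Tbx1* was at 12.5, 17.7, 14.1 and 13 CPM in *Kat6a*-/- and at 18.7, 20.7, 26.8 and 26.3 CPM in *Kat6a* E/E embryos. The groups did not overlap, and replicates 1 and 2 of *Kat6a* E/E were lower than 3 and 4 (log2 fold change 0.55, SE 0.11, FDR=0.00893). WT was at 26.8 ± 3.33 CPM. Against WT the log2 fold change was -0.77 (FDR=0.000171) in *Kat6a*-/- and -0.22 (FDR=0.407) in *Kat6a* E/E. In double mutants *Tbx1* was at 20.9, 22.1, 18.5 and 22.5 CPM, which is 0.45 (FDR=0.162) against *Kat6a*-/-. It was the only one of 12 T-box genes called here (8.33%, against 1.6% of all genes tested). *Tbx5*, a factor of the heart chambers and the forelimb, was at 14.9, 10.2, 16 and 18.4 CPM in *Kat6a*-/- and 16, 14.8, 13.6 and 17.2 CPM in *Kat6a* E/E, with overlap (log2 fold change 0.11, SE 0.11, FDR=0.683). The means of both mutants lay below the WT mean of 20.04 ± 3.61 CPM. Against WT the log2 fold change of *Tbx5* was -0.44 (FDR=0.0263) in *Kat6a*-/- and -0.33 (FDR=0.222) in *Kat6a* E/E. *Tbx2*, at a log2 fold change of 0.15 (FDR=0.528), and *Tbx15*, at 0.16 (FDR=0.815), did not pass.

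Among 37 forkhead genes, 2 were called (5.41%, against 1.6% of all genes tested), both higher: *Foxf1*, described above, and its neighbour *Foxl1*. *Foxl1* was at 2.65, 2.72, 4.38 and 3.70 CPM in *Kat6a*-/- and 4.81, 5.65, 7.45 and 4.50 CPM in *Kat6a* E/E (log2 fold change 0.71, SE 0.18, FDR=0.0443). The *Foxl1* groups were apart by a small margin, and without *Kat6a*-/- replicate 2 it was at 0.60 (FDR=0.187). *Foxa2*, the factor of the floor plate and endoderm, did not pass, at 2.74, 3.72, 7.58 and 5.76 CPM in *Kat6a*-/- and 7.48, 8.45, 10.6 and 10.8 CPM in *Kat6a* E/E (log2 fold change 0.74, SE 0.22, FDR=0.0867). Replicate 3 of *Kat6a*-/- lay above the lowest *Kat6a* E/E library. *Foxc2* and *Foxc1*, factors of the arches and the paraxial mesoderm, had log2 fold changes of 0.31 (FDR=0.134) and 0.049 (FDR=0.764). Against WT, *Foxa2* was at -1.03 (FDR=0.0114) in *Kat6a*-/- and -0.29 (FDR=0.624) in *Kat6a* E/E. *Foxc2* was at -0.56 (FDR=0.00352) and -0.26 (FDR=0.318) in the same order, and *Foxc1* at -0.14 (FDR=0.219) and -0.095 (FDR=0.63).

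Of 38 Hox genes, 1 was called (2.63%, against 1.6% of all genes tested), and it was lower in *Kat6a* E/E. *Hoxd1* was at 10.8, 9.96, 10.2 and 8.24 CPM in *Kat6a*-/- and at 5.70, 2.63, 5.06 and 4.63 CPM in *Kat6a* E/E embryos. All *Kat6a* E/E values were below those of *Kat6a*-/- (log2 fold change -0.90, SE 0.18, FDR=0.00952), and WT, at 5.83 ± 2.33 CPM, was nearer to *Kat6a* E/E. Of the 38, 30 had a negative log2 fold change, with a median of -0.25, and the family ranged from -1.13 to 0.37. A positive one was held by 21.1% of them, against 48.6% of all genes tested. The family median was -0.31 in *Kat6a* E/E against WT and -0.074 in *Kat6a*-/- against WT. The calls against WT lay the other way: 1 Hox gene higher and 3 lower in *Kat6a*-/-, and 0 in *Kat6a* E/E. Of all genes tested, 2.64% and 0.275% were called in these comparisons. The Hox gene with the smallest p in the other direction was *Hoxa2*, which patterns the hindbrain and the second arch, at 16.1, 18.8, 14.2 and 16.6 CPM in *Kat6a*-/- and 22.5, 19.7, 22.7 and 22 CPM in *Kat6a* E/E. It did not overlap but missed the threshold (log2 fold change 0.37, SE 0.11, FDR=0.0714), which it passed without *Kat6a*-/- replicate 2, at 0.49 (FDR=0.0231). WT was at 24.4 ± 2.60 CPM. Against WT the log2 fold change of *Hoxa2* was -0.50 (FDR=0.00952) in *Kat6a*-/- and -0.13 (FDR=0.694) in *Kat6a* E/E.

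*Skida1*, a SKI and DACH domain gene near *Bmi1*, was the 1 gene called of 6 in that neighbourhood (16.7%, against 1.6% of all genes tested). *Skida1* was at 35.6, 58.2, 48.6 and 38.6 CPM in *Kat6a*-/- and at 66.8, 69.2, 59.95 and 72.5 CPM in *Kat6a* E/E embryos. The groups were separated by a narrow gap, since *Kat6a*-/- replicate 2 was the highest of its genotype (log2 fold change 0.41, SE 0.082, FDR=0.0117). WT was above both, at 79.1 ± 5.86 CPM, with log2 fold changes against it of -0.68 (FDR=6.02e-05) in *Kat6a*-/- and -0.27 (FDR=0.117) in *Kat6a* E/E. *Bmi1*, a Polycomb gene that represses cell cycle inhibitors, was at 97, 88.2, 109 and 109 CPM in *Kat6a*-/- and 111, 118, 112 and 121 CPM in *Kat6a* E/E and did not pass (log2 fold change 0.19, SE 0.061, FDR=0.115). The lowest *Kat6a* E/E library was just above the highest *Kat6a*-/- library. *Bmi1* was above WT in *Kat6a* E/E, with a log2 fold change of 0.30 (FDR=0.0182), and the value in *Kat6a*-/- was 0.11 (FDR=0.369).

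Neural crest genes were called in both directions, 1 higher and 3 lower of 29 (13.8%, against 1.6% of all genes tested), with a list median of -0.094. *Ednrb*, the endothelin receptor of migrating crest cells, was higher. *Ednrb* was at 28.1, 31.8, 27.1 and 31.5 CPM in *Kat6a*-/- and at 48.6, 46.2, 44.4 and 47.4 CPM in *Kat6a* E/E embryos. Both groups were tight and far apart (log2 fold change 0.57, SE 0.11, FDR=0.00952), and WT was at 44.6 ± 3.58 CPM. *Ednrb* was the 1 named gene called in all 22 alternatives. *Msx2* and *Msx1*, homeobox factors that respond to BMP signals at the border of the neural plate and in the arches, were lower. *Msx2* was at 49.2, 47.7, 45.7 and 40.2 CPM in *Kat6a*-/- and at 27.1, 31.6, 33.6 and 30.8 CPM in *Kat6a* E/E embryos. These values did not overlap (log2 fold change -0.48, SE 0.091, FDR=0.00857). *Msx1* was at 63.4, 64.9, 42.5 and 44.8 CPM in *Kat6a*-/- and 35.3, 35.1, 34.8 and 35.3 CPM in *Kat6a* E/E, and the 4 *Kat6a* E/E values were nearly identical while replicates 1 and 2 of *Kat6a*-/- were high (log2 fold change -0.48, SE 0.098, FDR=0.0155). *Tfap2c*, a factor of the surface ectoderm and the crest, overlapped at 18.6, 22.8, 16.1 and 13.7 CPM in *Kat6a*-/- and 12, 13.8, 12.9 and 11.9 CPM in *Kat6a* E/E (log2 fold change -0.48, SE 0.12, FDR=0.0417). Without *Kat6a*-/- replicate 2 only *Ednrb* and *Msx2* of these 4 were called, and the values were -0.31 (FDR=0.148) for *Msx1* and -0.23 (FDR=0.383) for *Tfap2c*.

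Connexins, the proteins of gap junctions, were called in both directions. *Gja1* (connexin 43), the most widely used gap junction protein of the embryo, had the smallest p of all lower genes and lies on chromosome 10, 56253241 to 56278609, plus strand. *Gja1* was at 344, 299.6, 310.0 and 301 CPM in *Kat6a*-/- and at 257, 232, 239 and 276 CPM in *Kat6a* E/E embryos. All *Kat6a* E/E values were below those of *Kat6a*-/- (log2 fold change -0.27, SE 0.038, FDR=0.000602). WT was between, at 271 ± 10.3 CPM. *Gja4* (connexin 37), a member of arterial endothelium, was higher, at 7.59, 6.38, 8.21 and 9.13 CPM in *Kat6a*-/- and 11.3, 11.4, 11.1 and 11.1 CPM in *Kat6a* E/E (log2 fold change 0.53, SE 0.13, FDR=0.0351). The 4 *Kat6a* E/E values of *Gja4* were nearly equal, and all were above *Kat6a*-/-. Without *Kat6a*-/- replicate 2, *Gja1* was called, at -0.28 (FDR=0.000931), and *Gja4* was not, at 0.38 (FDR=0.228).

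Genes of fibroblast growth factor signalling that were called were lower, 2 of 24 (8.33%, against 1.6% of all genes tested). A negative log2 fold change was found for 17 of the 24 (list median -0.11). The receptor *Fgfr2* was at 154, 151, 145 and 134 CPM in *Kat6a*-/- and 127, 121, 118 and 126 CPM in *Kat6a* E/E. Its groups did not overlap (log2 fold change -0.22, SE 0.048, FDR=0.0188). *Spry1*, a feedback inhibitor induced by the pathway, was at 41.8, 41, 44.6 and 37.5 CPM in *Kat6a*-/- and 33.6, 33.7, 33 and 33.7 CPM in *Kat6a* E/E, with tight *Kat6a* E/E values below all *Kat6a*-/- values (log2 fold change -0.29, SE 0.071, FDR=0.0352). WT *Spry1* was at 41.1 ± 2.52 CPM, the level of *Kat6a*-/-. Neither was called without *Kat6a*-/- replicate 2, at -0.20 (FDR=0.0787) and -0.28 (FDR=0.0972). *Flrt3* (chromosome 2, 140492834 to 140513396, minus strand), a membrane protein that binds FGF receptors and guidance receptors, was among the lower genes with the smallest p. *Flrt3* was at 104, 89.2, 96.5 and 99.9 CPM in *Kat6a*-/- and at 73.8, 77.7, 75.1 and 84.7 CPM in *Kat6a* E/E embryos. The 4 *Kat6a* E/E embryos were below every *Kat6a*-/- embryo and level with WT at 78.7 ± 7.62 CPM (log2 fold change -0.31, SE 0.047, FDR=0.00148). *Myc*, the growth regulator, was at 75.3, 81, 87.1 and 83.4 CPM in *Kat6a*-/- and 69.7, 55.4, 59.4 and 79.4 CPM in *Kat6a* E/E, with overlap (log2 fold change -0.37, SE 0.085, FDR=0.0332). It was the only gene called of 18 in its list (5.56%, against 1.6% of all genes tested). It was not called without *Kat6a*-/- replicate 2, at -0.38 (FDR=0.069).

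The remaining genes with the smallest p had various roles. Higher were *Cemip2*, a hyaluronan-degrading membrane protein, *Rai14*, an actin-associated protein, and *Megf10*, an engulfment receptor. *Cemip2* was at 144, 162, 152 and 147 CPM in *Kat6a*-/- and at 193, 194, 181 and 177 CPM in *Kat6a* E/E embryos, without overlap (log2 fold change 0.30, SE 0.04, FDR=0.00032). The log2 fold changes of *Rai14* and *Megf10* were 0.26 (FDR=0.00214) and 0.63 (FDR=0.0026), both without overlap. Lower were *Mex3c*, an RNA-binding ubiquitin ligase, *Zfp207*, a zinc finger protein of the mitotic spindle, *Acvr1b*, an activin receptor, *Mylip*, a ubiquitin ligase of the low-density lipoprotein receptor, *Mpzl2*, an epithelial adhesion protein, *Tmem132c* and *Prom2*. *Mylip* was at 18.3, 15.8, 20.9 and 16.6 CPM in *Kat6a*-/- and at 12, 10.1, 10.3 and 11.6 CPM in *Kat6a* E/E embryos. The highest *Kat6a* E/E library was below the lowest *Kat6a*-/- library (log2 fold change -0.57, SE 0.11, FDR=0.00718), and the other 6 did not overlap either. Their log2 fold changes ran from -0.20 in *Zfp207*, the smallest, over -0.22 in *Tmem132c*, -0.31 in *Acvr1b*, -0.34 in *Mex3c* and -0.69 in *Mpzl2* to -0.94 in *Prom2*. *Mpzl2* and *Prom2* were not called without *Kat6a*-/- replicate 2, at -0.53 (FDR=0.0787) and -0.61 (FDR=0.144).

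By size of change among genes with a mean of at least 1 CPM, *Adgra1*, *Bhlhe22* and *Nkx6-2* were first among the higher and *Prss22*, *Ccl27a* and *Prom2* among the lower genes. *Adgra1*, an adhesion receptor of the nervous system, was at 0.0882, 0.465, 0.313 and 0.421 CPM in *Kat6a*-/- and 1.25, 2.11, 1.66 and 1.86 CPM in *Kat6a* E/E (log2 fold change 1.98, SE 0.4, FDR=0.0101). Its *Kat6a*-/- values were all below 1 CPM, and the lowest, in replicate 1, corresponds to few reads. *Prss22*, a protease, was at 2.56, 2.72, 2.66 and 1.45 CPM in *Kat6a*-/- and 1.01, 0.991, 1.08 and 0.964 CPM in *Kat6a* E/E and did not overlap (log2 fold change -1.05, SE 0.27, FDR=0.0443). *Ccl27a*, at 12.4, 14.1, 15 and 20.9 CPM in *Kat6a*-/- and 8.85, 9.09, 9.55 and 10.2 CPM in *Kat6a* E/E (log2 fold change -0.96, SE 0.22, FDR=0.0356), is uncertain because its whole transcript has near-identical copies in the genome. Of the smaller changes in other lists, *Mcm4*, a subunit of the replicative helicase, was higher (log2 fold change 0.14, SE 0.033, FDR=0.0222). It was the only one of 23 replication genes called (4.35%, against 1.6% of all genes tested). *Ncan*, a proteoglycan of the neural matrix, was higher with overlap (log2 fold change 0.68, SE 0.17, FDR=0.0448). None of these 4 was called without *Kat6a*-/- replicate 2: the values were -0.85 (FDR=0.229) for *Prss22*, -1.09 (FDR=0.0765) for *Ccl27a*, 0.14 (FDR=0.0585) for *Mcm4* and 0.74 (FDR=0.111) for *Ncan*, and no replication gene was called.

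No gene was called by limma in 12 of the lists, which held 226 tested genes, 45 of them (19.9%) with an unadjusted p under 0.05, against 2214 of all genes tested (15.6%). They were the KAT6 complexes (11 genes), Trithorax and Polycomb genes (15), Hox cofactors (13), somite genes (27), cardiac sarcomere genes (20), retinoic acid genes (18), actins and their regulators (24), inhibitors of cyclin-dependent kinases with p53 targets (19), imprinted growth genes (20), fetal program genes (10), hypoxia response genes (23) and endoplasmic reticulum stress genes (26). Cardiac sarcomere genes had a median of -0.14, with 15 of 20 negative. Of the 23 hypoxia genes 20 were negative, with a median of -0.22, and 9 (39.1%) had an unadjusted p under 0.05. The hypoxia median was 0.16 in *Kat6a*-/- and 0.018 in *Kat6a* E/E against WT.

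Other measures that differed between the libraries are given for comparison. Summed markers of amnion and surface ectoderm were 148 to 224 CPM in *Kat6a* E/E and 226 to 289 CPM in *Kat6a*-/-, beside which stand the lower levels of *Prom2* and *Mpzl2*. *Tfap2c* is in this sum, and without it the sums were 135 to 211 and 203 to 275 CPM, with overlap. Endothelial markers were 366 to 447 and 267 to 380.3 CPM, yolk sac markers 41.2 to 83.7 and 15.1 to 197 CPM, and primitive red cell markers 5527 to 7313 and 3963 to 8981 CPM, all with overlap. The difference between the longest and the shortest decile of genes, as a log2 deviation from the mean library, ran from -0.22 to -0.081 in *Kat6a*-/- and from -0.216 to 0.26 in *Kat6a* E/E. With the length slope of each library as a covariate 173 genes were called, 121 of them among the 227. Genes on the X chromosome made up 7 of the 227 called genes, of 504 tested, beside 220 called of 13679 tested on autosomes. The part of the cell type markers in the results was not tested.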

How the data were processed

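RNA of single E9.5 embryos was sequenced as paired-end, unstranded libraries, of which 8 are compared here. Per the methods of the study, the authors aligned reads to mm39 with Rsubread and counted read pairs over RefSeq exons with featureCounts. The deposited values are raw counts per gene with the gene length. Without strand, reads of a gene and its antisense partner cannot be told apart. Of 26411 genes, 26359 were matched by Entrez ID to RefSeq names and types, 52 were not, and 21030 were protein-coding. After removal of Y-linked genes and filterByExpr (minimum count 10), 14183 were tested in all 24 embryo libraries with TMM scaling, 4 surrogate variables, voomLmFit with litter as a random block (correlation 0.107) and robust empirical Bayes moderation, as in the methods of the study (R 4.3.3, edgeR 4.0.16, limma 3.58.1). CPM are TMM-scaled. Libraries held 11498135 to 23339359 counts. Each library is labelled as a separate embryo. The limma p-values rest on the spread between embryos within genotypes that remains after the 4 surrogate variables. This spread is pooled over all 24 embryo libraries and is not that of the 8 compared embryos alone.

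In counts simulated for this comparison over 14114 genes, the model recovered 7.46% of genes changed by 0.25, 64.2% of those changed by 0.5 and 87.9% of those changed by 1 on the log2 scale, with 5 false calls. These counts held no litter effect and no unknown factor shared between genes, so the shares and false calls may differ in the real data. Named genes were *Kat6a* and *Kat6b*, the 12 called genes with the smallest p in each direction, up to 4 called members of each list by p, the 8 T-box, forkhead and Polycomb genes that the study discusses, the Hox gene of smallest p in each direction, and the 3 largest changes in each direction at a mean of at least 1 CPM. Other called list members were named without the full set of values, and some called genes are not reported here. The members and lists were chosen with earlier results of these data known. Alternatives were other numbers of surrogate variables, edgeR quasi-likelihood, DESeq2 1.42.0, other scaling and filters, a replicate block and leaving out each library. Promoters, gene positions and copies (at least 97% identity over 60 bases) were read from GRCm39 with GENCODE.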

Additional observations from a re-analysis of the deposited data

Results flagged for a closer look

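Of 178 sets of 4 values (named genes, summed markers and the length trend in each genotype), 11 held a highest or lowest embryo that stood apart by Dixon's test, and chance gives about 1 in 20. Of the 11, 5 were *Kat6a*-/- replicate 2. In that library *Xist* was at 527 CPM (at most 0.235 in the other 3), the 4 Y-linked genes summed to 0.199 CPM (161 to 174), decidua markers summed to 66.8 CPM (95.9 to 99.1), *Nes* was at 291 CPM (237 to 244) and *Notch1* was at 123 CPM (104 to 105). For *Nes* and *Notch1* this library was the *Kat6a*-/- embryo nearest to *Kat6a* E/E. Elsewhere in *Kat6a*-/-, *Tbx2* was at 42.9 CPM in replicate 3 (30.7 to 31.5) and *Prss22* at 1.45 CPM in replicate 4 (2.56 to 2.72). Among *Kat6a* E/E embryos, replicate 3 stood apart in 4 sets: *Foxf1* was highest at 41.9 CPM (26.0 to 28.3), *Gas1* lowest at 217 CPM (254 to 255), *Spry1* lowest at 33 CPM (33.6 to 33.7) and the trophoblast marker sum highest at 229 CPM (173 to 179).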

How the results depend on the processing

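The 227 genes called (138 higher, 89 lower) varied in number with the model, and each kept its sign in all 22 alternatives, except 1 with only the 8 libraries. The number was 61 (33 higher, 28 lower) with 0 surrogate variables, 189 with 2 and 416 (236 and 180) with 6, 105 (57 and 48) with edgeR quasi-likelihood and no surrogate variables and 263 with 4, 340 (lower 159) with DESeq2 on genotype only and 374 (225 and 149) with DESeq2 and 4 surrogate variables. It was 348 (lower 147) without a filter, 478 (270 and 208) with all gene types, 290 without the litter block, 217 with DESeq2 size factors and 3 (1 and 2) with only the 8 libraries and no surrogate variables, where fewer samples entered. The length slope as a covariate, chosen after seeing the data, gave 173. Leaving out 1 library gave 112 to 395 genes (75 to 217 higher, 23 to 178 lower), the lowest total without *Kat6a* E/E replicate 2, the highest without *Kat6a* E/E replicate 3, and 116 without *Kat6a*-/- replicate 2, 142 without *Kat6a*-/- replicate 1, 141 without *Kat6a* E/E replicate 1 and 142 without *Kat6a* E/E replicate 4. Replicate numbers do not pair these embryos (correlations of same-numbered deviations -0.0247, 0.2, -0.0406 and 0.1, and 2 of 4 correlated best with their own number), and a replicate block gave 165 genes, of which 52 were lower. WT lay nearer to *Kat6a* E/E for 175 to 188 called genes with a smaller prior count, DESeq2 size factors or 1 WT library left out. The excess distance of 0.148 was 0.0838 (exact permutation p = 0.0857) without *Kat6a* E/E replicate 2 and 0.111 (p = 0.0857) without *Kat6a* E/E replicate 4, and with 4 against 3 libraries p cannot go below 0.0286. Leaving out 1 library gave 0.0838 to 0.199. Over 65 named called genes, 1106 of 1428 values under alternatives kept the call and 322 lost it, with 0 changes of sign. Genes that were not called changed sign under some alternatives: *Kat6a* (log2 fold change 0.17 at most when 1 library was left out, -0.026 with the length slope, -0.038 without *Kat6a* E/E replicate 1), *Tbx5* (0.23 at most, -0.083 without *Kat6a*-/- replicate 2) and *Tbx15* (0.36 at most, -0.059 without *Kat6a*-/- replicate 4, -0.086 without *Kat6a* E/E replicate 1). The cause of these changes was not tested. In the simulated counts, which held no litter effect, most changes of 0.25 on the log2 scale were not called.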

Other observations

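Among the genes called lower in *Kat6a* E/E were 13 known from surface epithelium. They were picked from the called genes after their values were seen, so that their common direction follows from the choice. They included the grainyhead factors *Grhl2* and *Grhl3*, the protease inhibitor *Spint1*, the desmosomal protein *Perp* and the kinase *Ripk4*. Of the 7 listed markers of amnion and surface ectoderm, 1 was called lower, *Tfap2c*, which is among the 13. *Grhl3* was at 10.9, 9.83, 10.01 and 8.57 CPM in *Kat6a*-/- and 4.63, 6.46, 8.32 and 3.47 CPM in *Kat6a* E/E (log2 fold change -0.62, SE 0.15, FDR=0.0343 by limma), and the 2 groups did not overlap. Without *Kat6a*-/- replicate 2, none of the 13 was called by limma, and *Grhl3* was at -0.53 (FDR=0.0859).

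Among the genes called higher, 7 picked in the same way are known from vessels: *Flt4*, the receptor of lymphatic growth, the endothelial receptors *Eng* and *Cd93*, the junction protein *Jam2*, *Gja4*, *Adgrf5* and *Prox1*, which is also in the marker list of gut endoderm and liver bud. Of the 8 listed endothelium markers none was called by limma, and their summed levels overlapped between the genotypes. Their median log2 fold change was 0.28, and 7 of the 8 (87.5%) had an unadjusted p under 0.05, against 15.6% of all genes tested. *Cd93* was at 34.1, 29.6, 35.7 and 38.8 CPM in *Kat6a*-/- and 51.7, 41.6, 43.8 and 51.1 CPM in *Kat6a* E/E, without overlap (log2 fold change 0.44, SE 0.08, FDR=0.00518 by limma). *Jam2* was the 1 gene of the 7 called without *Kat6a*-/- replicate 2.

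Adhesion G protein-coupled receptors, a family chosen after values were seen, were called in 7 of 20 tested members, all higher, against 1.6% of all genes tested, and 17 of the 20 had a positive log2 fold change (median 0.205, beside -0.0037 over all genes). Besides *Celsr2*, these were *Adgrv1*, *Adgrb1*, *Adgrf5*, *Adgrl3*, *Adgra1* and *Adgrg1*. *Adgrg1*, a receptor of neural progenitors, was at 52.2, 71.8, 56.8 and 54.5 CPM in *Kat6a*-/- and 90.2, 97.6, 72.5 and 74.7 CPM in *Kat6a* E/E, without overlap. Of the 7, 5 were called without *Kat6a*-/- replicate 2.

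Cytoplasmic ribosomal protein genes, also chosen after their values were seen, were called lower in 9 of 84 members (10.7%), against 0.628% of all genes tested. Of the 84, 73 had a negative log2 fold change, with a median of -0.12, and 13.1% a positive one, against 48.6% of all genes. Against WT, 17 of the 84 were called lower in *Kat6a* E/E and 0 in *Kat6a*-/-, with medians of -0.16 and -0.056. Without *Kat6a*-/- replicate 2, 3 were called, *Rpl3*, *Rpl17* and *Rplp2*. Many have processed pseudogenes, and 96.2% of the transcript of *Rpl3* has near-identical copies, so these counts are uncertain.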
